A study of Homo sapiens with 8 samples.

Results

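The mRNAs of 8 integrin genes and 1 integrin-like gene, ITGA1, ITGA3, ITGA5, ITGA11, ITGAV, ITGB1, ITGB3, ITGB5 and ITGBL1, were followed through the LARP6 eCLIP data of human hepatic stellate cells. In eCLIP, ultraviolet light fixes RNA to the proteins that touch it, the RNA is cut with RNase, and fragments pulled down with an antibody to the protein are sequenced next to an input cut from the same range of the gel. All groups were WT cells grown in DMEM with 10% FBS. The control group was labelled both untreated and DMSO, so whether it received vehicle is not given in the sources used here, and the treated group received TGFβ1 at 5 ng/ml. Each condition had 2 immunoprecipitated libraries and 2 inputs, 8 samples in all. Whether the cells were a line or came from donors, and whether replicates were separate cultures, is not stated, so the spread between libraries may be technical.

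A region was taken for a gene when its midpoint lay within the gene's GRCh38 bounds on the gene's strand. This gave 955 of the 178461 regions in 6 lists. Of these, 178 and 162 were tested clusters of control replicates 1 and 2, and 256 and 345 were tested clusters of TGFβ1 replicates 1 and 2. A further 3 were in the reproducible list that the authors made from both control libraries, and 11 were in the matching TGFβ1 list. A tested cluster is a stretch of immunoprecipitated reads for which the authors gave a log2 fold over input and a −log10 p-value. It was called enriched when both were at least 3. The genes were selected on family and on the peak calls and log2 folds of these same 4 libraries, through earlier results, so all their values are a description.

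Integrins are receptors made of an α and a β subunit that span the plasma membrane and join the extracellular matrix to the actin cytoskeleton. The β1 subunit pairs with many α subunits, and αV pairs with several β subunits and binds the latent form of TGFβ as well as vitronectin and fibronectin. In stellate cells, integrins anchor the cell to collagen and fibronectin and take part in releasing active TGFβ from the matrix. LARP6 is a La-related protein known for binding a stem-loop near the 5′ end of fibrillar collagen mRNAs.

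The libraries differed in depth of calling. Control replicates 1 and 2 had 51273 and 39880 tested clusters, of which 620 and 835 were enriched. TGFβ1 replicates 1 and 2 had 31137 and 54536, of which 837 and 1985 were enriched. Read depth is unknown because the lists hold no counts. Of 12 stellate cell markers that could be placed, 10 had clusters in every library, and LRAT and RGS5 had none. None of 4 hepatocyte markers had a cluster, among them ALB. Macrophage markers were represented by CD68 alone of 6 genes, with 2 to 4 clusters, and endothelial markers by 2 clusters in KDR in TGFβ1 replicate 2.

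LARP6 enrichment was found in 5 of the 9 genes, at 7 separate places. ITGB1, which encodes the β1 subunit, was the only one with peaks in both reproducible lists. ITGAV, ITGBL1 and ITGA11 had peaks in the TGFβ1 list and none in the control list. ITGB5 had an enriched cluster in TGFβ1 replicate 2 alone, and the enriched clusters of ITGA11 also came from that library alone. ITGA1, ITGA3, ITGA5 and ITGB3 had no enriched cluster in any library. The share of all genes with enrichment in any library or list is not given here. The genes were chosen on such calls, so the count of 5 in 9 is a description.

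Enriched clusters in these genes numbered 1 and 5 in control replicates 1 and 2 and 3 and 14 in TGFβ1 replicates 1 and 2. In control replicate 1 they made 0.562% of the set's tested clusters (Wilson interval at 95%, 0.0992 to 3.11), against 1.21% over all tested clusters. In control replicate 2 the share was 3.09% (interval 1.33 to 7.02) against 2.09%. For TGFβ1 replicate 1 it was 1.17% (interval 0.399 to 3.39) against 2.69%, and for TGFβ1 replicate 2 it was 4.06% (interval 2.43 to 6.70) against 3.64%. The share over all clusters lay inside the interval in each library. The intervals cover counting error only, and neighbouring clusters are not independent. Genes of the set with at least 1 enriched cluster were 1 of 8 and 3 of 8 tested genes in control replicates 1 and 2, beside 3.06% and 5.22% of all tested protein-coding genes. They were 2 of 8 and 5 of 9 in TGFβ1 replicates 1 and 2, beside 6.62% and 11.8%. Because the genes were chosen on calls of these libraries, an excess over these shares is part of the choice.

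By gene, 1 of 7 had a reproducible peak in control and 4 of 8 in TGFβ1, counting the genes tested in both libraries of the condition. Among all protein-coding genes tested in the same way, 3.94% and 7.10% had one. The share rests on few genes, and genes with more tested clusters have more chances to hold a peak. The genes were also chosen on these same peak calls, so a share above that of all genes cannot be read as a result. Of the 7 genes tested in all 4 libraries, 3 were in the TGFβ1 list alone, against 4.47% of all protein-coding genes, and 1 was in both lists, against 4.28%. When the enriched clusters of TGFβ1 replicate 1 alone stood for the treated cells, 2 genes remained, ITGAV and ITGB1. When control replicate 2 alone stood for control, 3 genes had an enriched cluster, and ITGAV and ITGBL1 were among them.

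**Figure D1:**
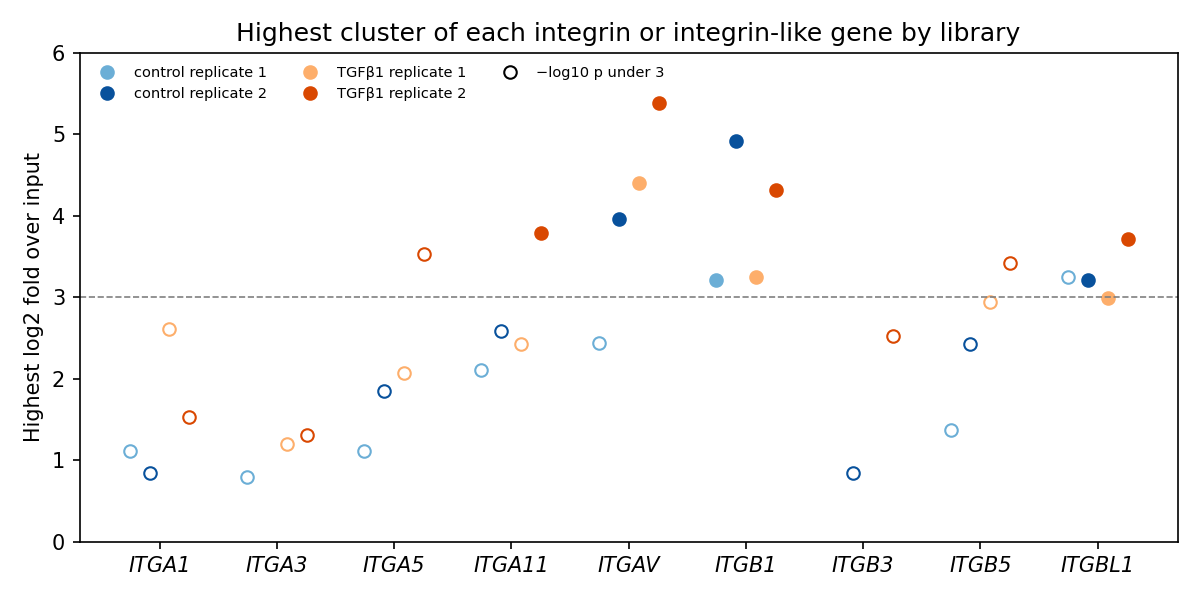
Highest log2 fold over input of any tested cluster in each gene (vertical axis) by library, with filled circles at a −log10 p of at least 3 and open circles below it. The dashed line marks a log2 fold of 3. ITGAV and ITGB1 reach 5.38 and 4.92, and ITGA1, ITGA3 and ITGB3 stay under 3 in every library in which they were tested.

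ITGB1 had the most reproducible peaks of the set, at 2 places 210 nt apart, about 80.0% of the way from its 5′ end to its 3′ end. The gene lies on chromosome 10 from 32900318 to 32958230 on the minus strand. The place nearer the 5′ end spanned 32911886 to 32911951. Its highest log2 folds were 3.21 and 3.10 without TGFβ1 and 2.96 and 3.63 with it, or 3.16 ± 0.07 and 3.30 ± 0.47 (SD, n = 2). The libraries of both conditions overlapped in value, and only TGFβ1 replicate 1 was under the limit of 3, with a −log10 p of 15.9.

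The other ITGB1 place spanned 32911581 to 32911675, ending 11263 nt short of the gene's 3′ end. Control libraries had highest folds of 2.91 and 4.92 there, and TGFβ1 libraries had 3.25 and 4.32, 3.92 ± 1.42 and 3.78 ± 0.76 (SD, n = 2). Replicate 2 was the higher library in each condition, and the conditions did not separate. The control list held 3 ITGB1 peaks and the TGFβ1 list 6, but these covered nearly the same RNA. They spanned 61 nt against 66 nt at the first place and 90 nt against 95 nt at the second. The larger number in TGFβ1 thus came from more pieces at the same 2 places. All 3 control peaks overlapped a TGFβ1 peak. The lowest listed ITGB1 peak stood just inside the limit, at a log2 fold of 3.003 in the TGFβ1 list. The annotation used here gives no exons, so whether these places are exonic is not given.

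ITGAV, which encodes the αV subunit, held the cluster with the highest log2 fold of the set, in TGFβ1 replicate 2. In both control libraries the second ITGB1 place was higher than the ITGAV place. The ITGAV place lay on chromosome 2, at 186641406 to 186641584 on the plus strand, 51350 nt from the 5′ end of a gene of 90846 nt. The highest folds there were 2.44 and 3.96 in the control libraries, and 4.41 and 5.38 after TGFβ1. Both TGFβ1 values were above both control values, at 4.89 ± 0.69 against 3.20 ± 1.08 (SD, n = 2), and the spread in control was wide. The −log10 p-values were 2.00, 4.11, 16.5 and 46.3. Control replicate 2 was itself enriched there, so the ITGAV place was absent from the control list without being free of enrichment in control. In TGFβ1 replicate 2, 407 of the 1985 enriched clusters of the library had a higher fold than this one.

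ITGBL1 encodes a secreted protein with EGF-like repeats resembling those of integrin β subunits, and it is no integrin subunit itself. Its enriched place lay on chromosome 13, at 101598179 to 101598301 on the plus strand, near the middle of a gene of 268182 nt. Control libraries had highest folds of 3.25 and 3.22, and TGFβ1 libraries had 2.997 and 3.72, that is 3.23 ± 0.03 and 3.36 ± 0.51 (SD, n = 2). The 4 libraries were alike in highest fold here. The 3.25 of control replicate 1 came from a cluster of 26 nt, in a place of 123 nt. What differed was the −log10 p-value. It was 2.30 and 4.09 for control, and 6.57 and 12.1 for TGFβ1. Control replicate 1 passed the fold limit and missed the p limit, and TGFβ1 replicate 1 was just under the fold limit. The gene's 2 peaks in the TGFβ1 list, at 3.26 and 3.34, therefore mark a place with similar highest folds in control.

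ITGA11, which encodes the α11 subunit of a collagen receptor, had 1 listed peak. It was 6 nt long, on chromosome 15 at 68369280 to 68369285 on the minus strand, with a listed log2 fold of 3.14. The clusters at this place had folds of 0.67 and 1.85 in control and 1.66 and 3.79 with TGFβ1, and TGFβ1 replicate 1 was below control replicate 2. The value of 3.79 belongs to the 6 nt alone, whereas the clusters of the other libraries were 45 to 100 nt long. In TGFβ1 replicate 2 the adjoining cluster of 86 nt, at 68369194 to 68369279, covers the rest of that stretch, and its fold was 2.44, under the limit. A longer cluster at 68402918 to 68403007 was enriched in TGFβ1 replicate 2, at 3.09. The other libraries had 1.30, 1.92 and 1.68 there. No ITGA11 cluster was enriched without TGFβ1 replicate 2.

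ITGB5, which encodes the β5 partner of αV, had a single enriched cluster on chromosome 3 at 124848317 to 124848393 on the minus strand. Its fold was 3.05 in TGFβ1 replicate 2, against 1.20 in TGFβ1 replicate 1 and 0.38 and −0.15 in control, and its −log10 p of 3.40 was near the limit. Another ITGB5 cluster had a fold of 3.42 in TGFβ1 replicate 2 with a −log10 p of 2.30, and an ITGA5 cluster had 3.53 with 2.56. Both passed the fold limit and fell short of the p limit.

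**Figure D2:**
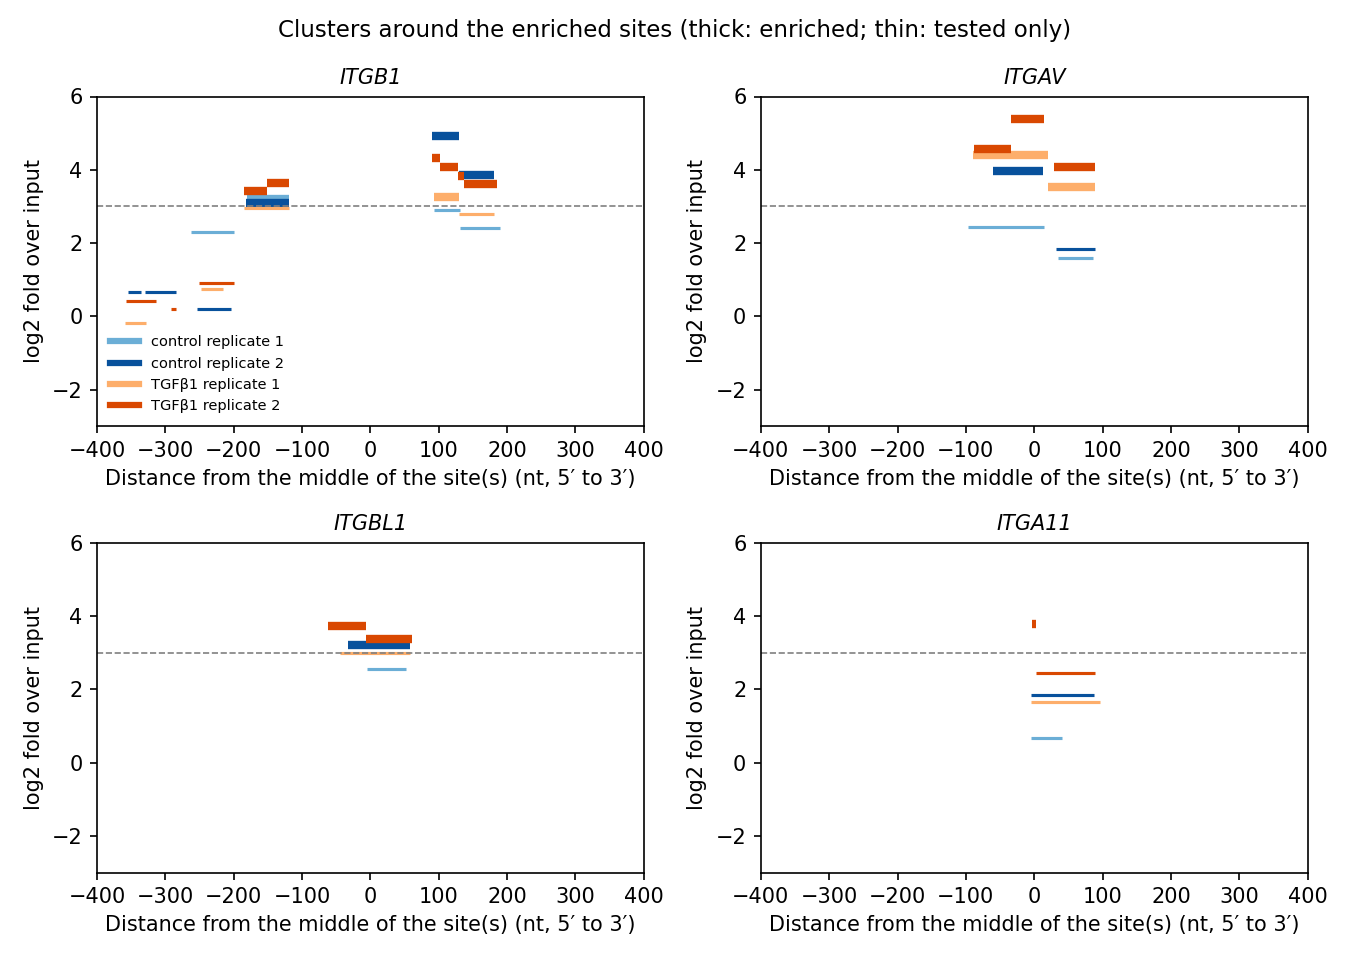
Clusters around the enriched places of ITGB1, ITGAV, ITGBL1 and ITGA11, drawn at their length, with distance from the middle of the place or places in nt (5′ to 3′) on the horizontal axis and log2 fold over input on the vertical axis. Thick bars are enriched and thin bars are tested only. In ITGB1 both places carry bars near or above the dashed limit of 3 in all 4 libraries, and in ITGA11 a single 6 nt bar of TGFβ1 replicate 2 at 3.79 rises above the limit.

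The highest fold of a gene was above both control libraries in both TGFβ1 libraries for 3 of the 6 genes with a mean of at least 10 clusters, ITGA5, ITGAV and ITGB5. Among all protein-coding genes with so many clusters and a value in each library, 36.8% showed this, so the share in the set is near the background. ITGA5, which encodes the α5 subunit of the fibronectin receptor, had 1.12 and 1.85 as control values, and 2.08 and 3.53 as TGFβ1 values. ITGB5 had 1.38 and 2.43 against 2.94 and 3.42. A two-sided exact permutation test of 2 libraries against 2 can reach no lower p than 0.333, so none of these differences was tested.

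The number of tested clusters was higher after TGFβ1 in the 6 genes of the set with many of them, 5 integrin genes and ITGBL1. All 6, which had a mean of at least 10 clusters, had more of them in both TGFβ1 libraries than in both control libraries, against 20.4% of the 1007 protein-coding genes with so many. None of the 6 had fewer in both TGFβ1 libraries, against 29.8%. The genes were chosen on peak calls and folds of these same libraries, so a departure from these shares cannot be read as a result. The pattern of more clusters was not limited to the set. It was seen in 9 of 20 such genes of focal adhesions and integrin signalling, in 12 of 23 genes of integrin ligands and latent TGFβ and in 4 of 8 stellate cell markers. Among the other integrin genes, ITGA7 alone had so many clusters, and its counts overlapped between conditions. ITGBL1 had 33 and 19 clusters in control and 58 and 74 with TGFβ1. ITGA5 had 18 and 16 against 31 and 36. In neither gene did the groups overlap.

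ITGAV had 15 and 20 tested clusters in the control libraries against 29 and 50, and ITGB5 had 20 and 19 against 32 and 33. ITGA11 held the most, with 57 and 55 against 71 and 107. For ITGB1 the gap was small, with 30 in each control library and 32 and 38 in the TGFβ1 libraries. Over all genes, the number of tested clusters was lowest in TGFβ1 replicate 1 and highest in TGFβ1 replicate 2.

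Scaled to 10000 tested clusters of the library, 5 of the 6 genes kept this pattern, against 31.0% of all such genes, and ITGB1 did not. On that scale it was seen in 12 of the 20 focal adhesion genes, 7 of the 23 ligand genes, 2 of the 8 stellate cell markers and in ITGA7. Lower values in both TGFβ1 libraries were seen in 32.6% of all such genes and in none of the 6. The choice of genes on these same libraries limits the scaled counts in the same way. ITGBL1 had 5.60 ± 1.18 per 10000 in control and 16.1 ± 3.58 with TGFβ1 (SD, n = 2), a ratio of 2.87. The ratios were 2.33 for ITGAV, 2.20 for ITGA5, 1.88 for ITGB5 and 1.70 for ITGA11. For ITGB1 the ratio was 1.29, with 5.85 and 7.52 per 10000 against 10.3 and 6.97. A cluster needs reads, so more RNA of a gene and more LARP6 on it cannot be told apart in these lists. Nor can fewer cells of a type and less RNA per cell. Of the cholangiocyte markers that could be placed, KRT7 had 1 and 2 clusters in control and 13 and 17 with TGFβ1. SOX9 had 1 or 2 in each library. Their part in the result was not tested.

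**Figure D3:**
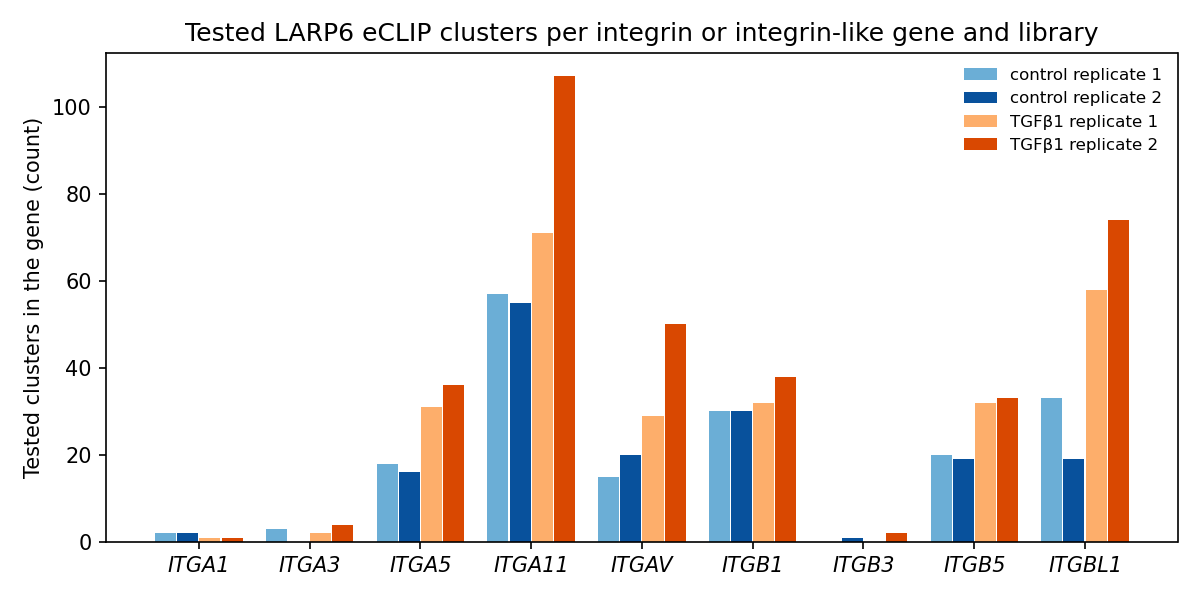
Tested clusters (count, vertical axis) in each of the 9 genes, 1 bar per library. ITGA11 has the tallest bars, from 55 to 107, and ITGA1, ITGA3 and ITGB3 have at most 4 clusters in any library.

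Most clusters were not where the enrichment was. The plot of cluster positions shows tested clusters from end to end of the longer genes, while enriched clusters sat in a few narrow stretches. The 7 places lay between 29156 and 145504 nt from the 5′ end of their gene, and between 11263 and 122555 nt from its 3′ end. The median fold of all clusters in the set was 0.38, 0.65, 0.62 and 0.49 in the 4 libraries, beside 0.38, 0.85, 0.94 and 0.82 over all tested clusters. ITGB5 clusters had medians of 1.17 and 1.20 in the TGFβ1 libraries, and ITGB1 clusters had 0.27 and 0.46.

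**Figure D4:**
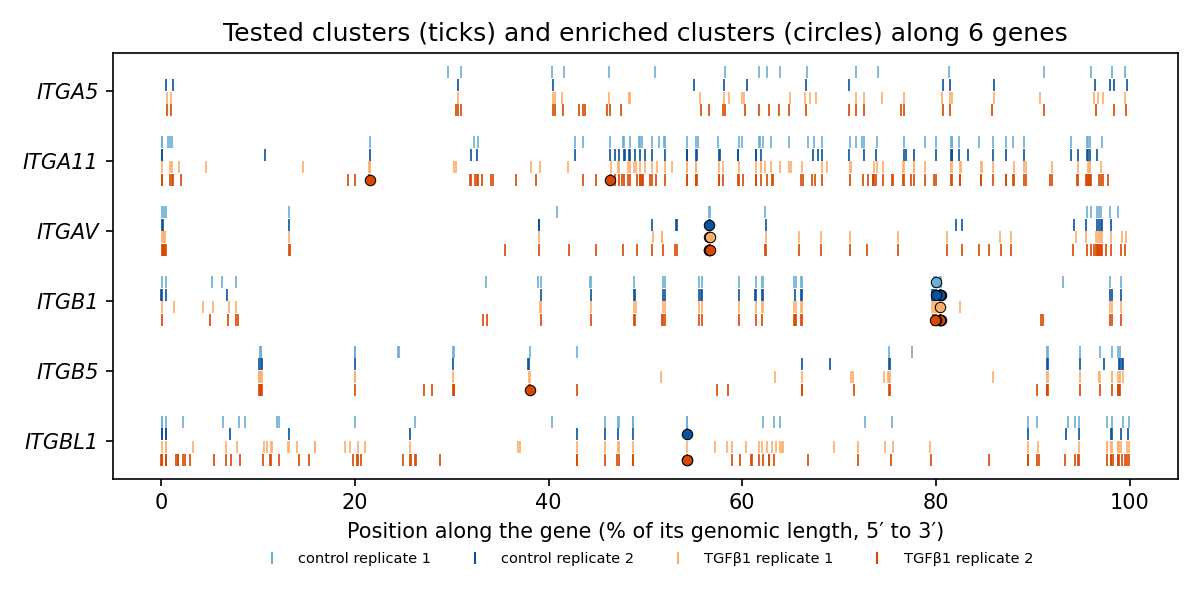
Midpoints of tested clusters (ticks) and enriched clusters (circles) along 6 genes, as a percentage of the genomic length from 5′ to 3′, with 1 row per library in each gene. Circles of ITGB1 lie at about 80% of its length in all 4 libraries, and those of ITGAV at about 56.6% in 3 libraries.

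Clusters at gene starts were looked at apart, because LARP6 is known for sites near the 5′ end of collagen mRNAs. Within 500 nt of an annotated start, the set had 14 and 15 control clusters and 17 and 22 TGFβ1 clusters, and none was enriched. The 5′ bound of each gene also counted as a start. It was the only start for ITGA3 and ITGB3, whose strand was inferred from their clusters. Among all protein-coding genes, 1.63%, 1.74%, 1.92% and 2.81% of such clusters were enriched in the 4 libraries. A count of 0 in so few clusters is no sign of a difference from these shares.

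The ITGB1 start nonetheless carried a cluster close to the limit in every library. It spanned the annotated start at 32958230 and had log2 folds of 2.98 and 2.55 without and 2.37 and 2.87 with TGFβ1, or 2.77 ± 0.31 and 2.62 ± 0.36 (SD, n = 2). Its −log10 p-values were 7.14, 7.75, 9.50 and 26.4, so it missed the call on fold alone. It would count as enriched in all 4 libraries at a fold limit of 2, an alternative chosen after its values were seen. The cluster began 23 to 32 nt upstream of the annotated start.

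The ITGA11 start differed between conditions in the same cluster window. The highest folds were 0.84 and 0.78 in the control libraries against 2.09 and 2.29, or 0.81 ± 0.04 and 2.19 ± 0.15 (SD, n = 2), with −log10 p-values of 0.659, 0.606, 7.46 and 9.28. ITGAV and ITGB5 also had higher values near a start in both TGFβ1 libraries, at 1.70 and 2.72 against 1.12 and 0.85 for ITGAV and at 2.89 and 1.67 against 0.56 and 1.17 for ITGB5. In these genes the highest cluster near the start did not lie at the same place in every library. The highest ITGAV cluster of control replicate 2 lay at 186590094 to 186590180. Clusters there had folds of −0.79 and 0.85 in control replicates 1 and 2, and 1.68 and 0.50 in TGFβ1 replicates 1 and 2. TGFβ1 replicate 2 was thus below control replicate 2 at that place. By the highest fold near a start, 3 of the 5 genes with such a cluster in all 4 libraries were higher in both TGFβ1 libraries. These were ITGA11, ITGAV and ITGB5. Among protein-coding genes with such a cluster, 35.3% showed this order. The 5 genes are few and were chosen on folds of these same libraries.

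The first 30 bases of the ITGB1 and ITGA11 transcripts, from the annotated start, are shown because these clusters reach them. They were taken from RefSeq on GRCh38.p14, as chr10:32958201-32958230 and chr15:68432134-68432163, both on the minus strand, and are written 5′ to 3′. Capitals mark bases under the start cluster in all 4 libraries for ITGB1, which is the whole run, and under the highest start cluster of both TGFβ1 libraries for ITGA11.
ITGB1: GCCAGCCCGCGGGAGAGGCCCAGCGGGAGT
ITGA11: agtgcaggcTGCAGGCGCCGCGCCGAGGAG
Of these bases, 80.0% and 76.7% were G or C.

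**Figure D5:**
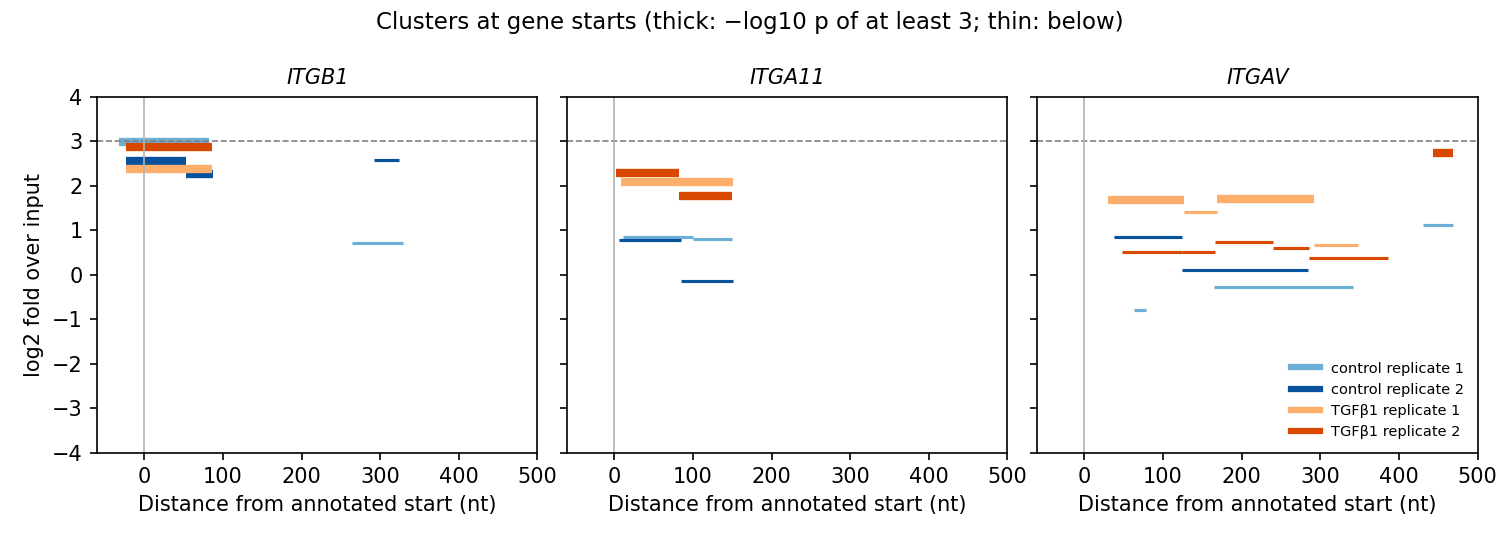
Clusters within 500 nt of the outermost annotated start of ITGB1, ITGA11 and ITGAV, with distance from that start in nt on the horizontal axis and log2 fold over input on the vertical axis. Thick bars have a −log10 p of at least 3. The bars that span the ITGB1 start lie between 2.37 and 2.98 in the 4 libraries, under the dashed limit of 3, and control replicate 2 has a further thick bar beside it at 2.26, and at the ITGA11 start the TGFβ1 bars lie above the control bars.

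The remaining genes gave little signal. ITGA1, which encodes a collagen-binding α subunit, had 1 or 2 clusters per library, and all 6 of them also lay within PELO, a gene on the same strand that shares its start, so none can be given to ITGA1 alone. ITGA3, which encodes a laminin-binding α subunit, had 3, 0, 2 and 4 clusters with a highest fold of 1.31. ITGB3, the β3 partner of αV, had 0, 1, 0 and 2, with a highest fold of 2.53 in TGFβ1 replicate 2. These counts do not allow a statement on LARP6 binding to the 3 mRNAs.

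Of 18 other integrin genes, ITGA7 alone had a cluster in all 4 libraries, and no cluster of any of the 12 that could be placed by strand was enriched. ITGA7 had 10 and 8 control clusters and 8 and 14 TGFβ1 clusters, with a highest fold of 2.72. The 6 without a known strand had no cluster on either strand in any library.

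Among genes of focal adhesions, the structures through which integrins hold actin, 0 of 39 tested genes had a reproducible peak in control and 4 of 38 in TGFβ1. These shares stand beside 3.94% and 7.10% of all protein-coding genes. The 4 genes included FLNA, which crosslinks actin and binds integrin tails, and ACTN1, an α-actinin. FLNA had highest folds of 2.96 and 3.17 in control and 4.24 and 7.25 with TGFβ1, which did not overlap. This order was seen in 36.8% of all protein-coding genes with a mean of at least 10 clusters. FLNA was also named because it had a reproducible peak, which only the TGFβ1 list held.

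Among integrin ligands and latent TGFβ genes, 11 of 28 had a reproducible peak in control and 11 of 31 in TGFβ1. Over all protein-coding genes the shares were 3.94% and 7.10%. The list holds collagen genes and was written with earlier results of these data known, so its higher shares are a description. The 4 with the highest folds were COL3A1, COL1A2, LTBP1 and COL1A1. LTBP1 encodes a protein that holds latent TGFβ in the matrix, where αV integrins release it. Its highest folds were 5.10 and 5.83 in control and 7.32 and 8.57 with TGFβ1. COL3A1, a collagen chain, had 9.36 and 9.06 against 9.14 and 9.48. COL3A1 was thus above 5.38, the highest value of any integrin gene, in each library.

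The genes nearest to ITGB1 in the highest fold of each library were TNKS1BP1, FGFRL1 and NAA60, among 4270 genes with a cluster in all 4 libraries. The distances, as the root of the summed squared differences of the 4 log2 folds, were 0.34, 0.72 and 0.73. TNKS1BP1 had 3.49 and 4.99 in control replicates 1 and 2 and 3.40 and 4.25 after TGFβ1. It was picked for these values, so the order of replicates that it shares with ITGB1 follows from the choice.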

How the data were processed

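The submitters' processing notes name STAR, cutadapt, UMI-tools and the build GRCh38, with no version and no order. How peaks were called, set against input and joined over replicates is not given in the sources used here. No list has a header, so units were inferred from the values. The deposited log2 column was taken for a fold over input by the authors, and the deposited −log10 column for the p-value of that comparison, with a cap of 400. Gene bounds came from RefSeq on GRCh38.p14. The strand came from the table of annotated starts, and for ITGA3 and ITGB3 from the majority of their clusters. Every gene that held a midpoint on its strand was credited. Coordinates are 1-based. Regions at most 20 nt apart were merged into 1 place. Overlap meant at least 1 nt on the same strand. Values of different libraries are compared with no test, since each fold is relative to its own input. The genes, lists and rules were chosen with earlier results of these data known. Named were all 9 genes, from each further list the 4 genes of highest fold among those with a reproducible peak, and the 3 genes nearest to the one with the most reproducible peaks. ITGA7, LRAT, RGS5, ALB, CD68, KDR, KRT7, SOX9 and PELO were named after their values were seen. Assignment, overlap and merging were tested on simulated data, where 2000 of 2000 planted clusters were given back to their gene. SciPy 1.17.1, pandas 2.3.3 and NumPy 2.4.6 under Python 3.11.15 were used, and matplotlib 3.10.9 drew the figures. Some values of the focal adhesion list are not reported here.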

Additional observations from a re-analysis of the deposited data

How the results depend on the processing

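The counts are small and moved with the limits and the library. With the log2 fold limit at 2, the mean number of enriched clusters per library went from 3 to 5.5 in control and from 8.5 to 14 in TGFβ1, and with the limit at 4 it was 0.5 and 3. At that limit the reproducible peaks went from 3 to 0 in control and from 11 to 1 in TGFβ1, in 0 and 1 genes. With no control peak left, the share of TGFβ1 peaks that overlapped one, 54.5% at the limit of 3, was 0% by construction and says nothing about sharing. With a replicate left out there is no reproducible list, so the enriched clusters of the library that was left stood for its condition. They numbered 1 to 5 in control and 3 to 14 in TGFβ1, in 1 to 3 and 2 to 5 genes. With these in place of the list, the share of control peaks shared with TGFβ1 was 33.3% to 100%, lowest without TGFβ1 replicate 2. That of TGFβ1 peaks shared with control was 18.2% to 81.8%, lowest without control replicate 2. With peaks required to be enriched in both replicates, 1 control peak and 3 TGFβ1 peaks in 2 genes were left. The cause was not tested. A −log10 p limit of 5, any overlap with the gene, other merging distances and an overlap of 50% of the shorter region left these counts within 1.5 times. The difference in highest fold changed sign in 4 of 33 alternatives, all of them in ITGB1 and ITGBL1. The fold limit of 2 was not run on the reproducible lists, which hold no peak under 3. No paired analysis was possible because the comparison of conditions comes from no test to which a block could be added, and an exact test of 2 pairs could reach no lower p than 0.5. As values within replicate numbers, chosen after seeing the data, the difference in highest fold (TGFβ1 minus control) was 1.97 and 1.42 in ITGAV. It was 0.04 and −0.60 in ITGB1, and −0.26 and 0.51 in ITGBL1. Its sign was the same in both numbers in 5 of 7 genes, among them ITGA1, whose clusters all lie within PELO too. The share of all genes with the same sign was not computed, so this count says nothing particular about the set. Depth is unknown, and 2 libraries per condition limit the precision.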
